A study of Mus musculus with 12 samples.

Results

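The subunits of activins and inhibins, their receptors and their antagonists were followed in fetal mouse gonads. They were 10 genes: the subunit genes Inhbb, Inha and Inhba, the receptor genes Acvr1b, Acvr1c, Acvr2a and Acvr2b, the co-receptor gene Tgfbr3, and the antagonist genes Fst and Fstl3. Members were taken by name from the 30176 gene symbols of the array, and each was measured by 1 transcript cluster, the array's unit for 1 gene locus. RNA of whole gonads at embryonic day 12.5 was hybridized to 12 Affymetrix Clariom D arrays, 4 per group. Control XY gonads were wildtype testes, dKO XY gonads were testes of Amh-/-; Inhbb-/- embryos, and control XX gonads were wildtype ovaries. Per the labels, the embryos came from crosses of Amh+/-; Inhbb+/- mice. The background was C57BL/6, both deletions were present in every cell, and the gonads had been separated from the mesonephros. The comparisons asked how the pathway stood in a testis without AMH and activin B, beside the difference between testis and ovary. The study calls the samples biological replicates, but the labels do not name the animal or the number of gonads behind each, so p-values measure the spread between these samples.

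Activins are dimers of β subunits, and inhibins pair a β subunit with the α subunit that Inha encodes. Activins bind a type II receptor, which activates a type I receptor that phosphorylates SMAD2 and SMAD3. Inhibins compete for the type II receptors with the help of the co-receptor betaglycan, while follistatin and follistatin-like 3 bind activins and keep them from their receptors. In the fetal mouse testis Inhbb and Inha are known as genes of Sertoli cells, and Fst is known as a gene of the fetal ovary.

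The deposited values are log2 intensities, so a difference of 1 is a change of 2-fold. Amh, the other targeted gene, averaged 11.67 ± 1.20 (SD, n = 4) in control XY and 5.75 ± 0.13 in dKO XY gonads, a difference of -5.92 ± 0.43 (± SE, adjusted p = 0.000372). The dKO XY level of Amh was below the median of the negative control probe sets (6.42), so the size of the difference may be understated. The arrays were not alike in quality. The signal contrast of an array, the mean of its positive minus its negative control probe sets, was 3.70 to 4.44 on the control XY, 2.48 to 3.83 on the dKO XY and 3.21 to 3.65 on the control XX arrays. Control XX arrays had a lower signal contrast than those of control XY (exact permutation test, two-sided, p = 0.0286, the lowest p that groups of 4 can give). For dKO XY against control XY arrays the exact permutation p was 0.0571. The median over all clusters was 0.26 higher in dKO XY than in control XY arrays, with no overlap between the groups (exact permutation p = 0.0286), and 0.17 higher in control XX arrays (exact permutation p = 0.0571). Arrays dKO XY 1 and dKO XY 3 had the lowest signal contrasts, 2.83 and 2.48. Each member was above the median of the 23 background probe sets on all 12 arrays and, except Acvr1c on 1 array, above their maximum. The means of Acvr1c (5.83) and Fstl3 (5.95) over the 12 arrays were nonetheless below the median of the negative control probe sets.

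**Figure D1:**
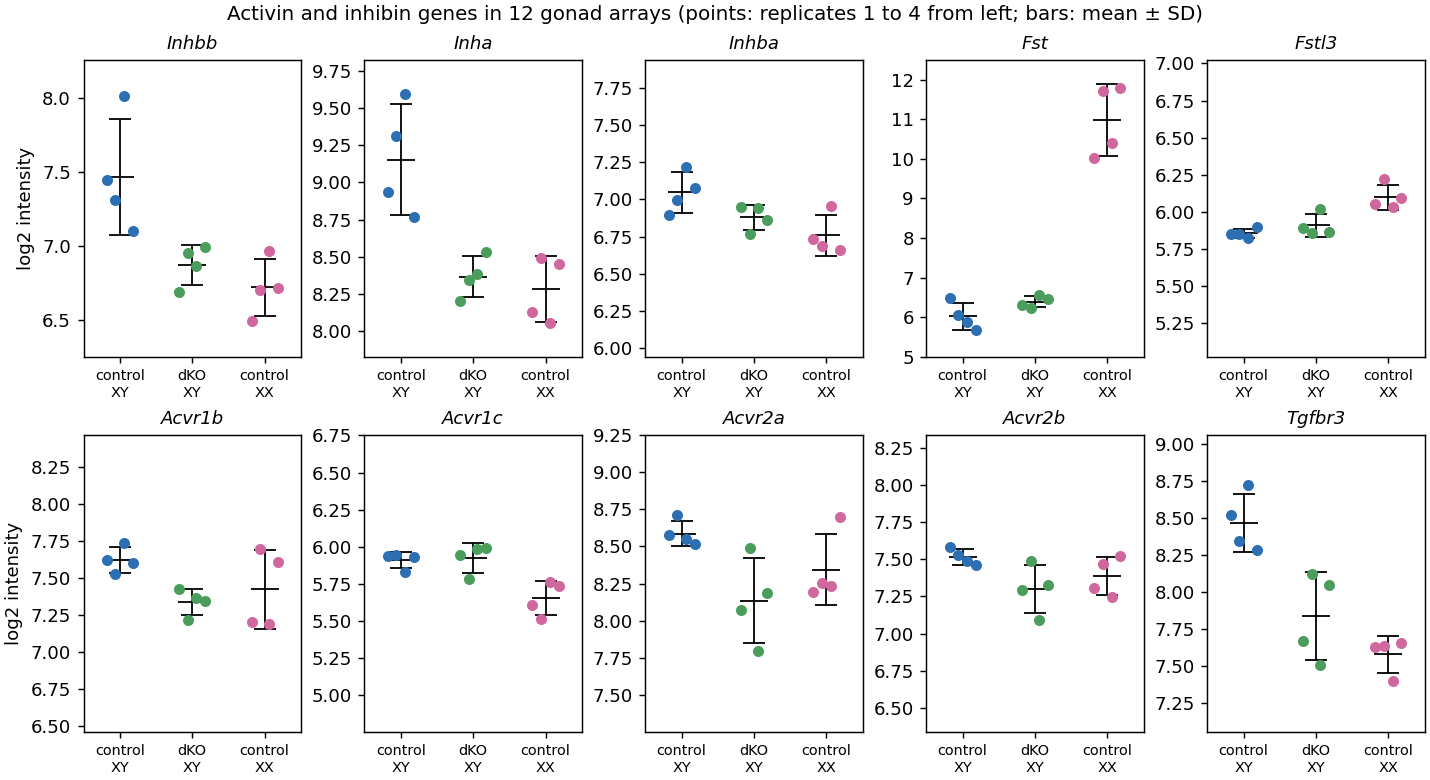
Log2 intensity (vertical axis, each panel with its own range) of the 10 genes in the 4 control XY, 4 dKO XY and 4 control XX arrays. Points are arrays, in the order of their replicate numbers from left to right, and bars give the mean ± SD. Fst stands at 10.02 to 11.80 in control XX and below 7 in both XY groups, while Inhbb, Inha and Tgfbr3 are highest in control XY.

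Among the ligand genes, Inhbb and Inha were lower when both Amh and Inhbb were deleted. Inhbb, the gene of the βB subunit that forms activin B and itself a target of the deletion, measured 7.45, 7.31, 8.02 and 7.10 (log2 intensity) in control XY arrays 1 to 4. It measured 6.69, 6.95, 6.86 and 6.99 in dKO XY arrays and 6.49, 6.71, 6.97 and 6.72 in control XX arrays. No dKO XY or control XX array reached the lowest control XY array, and the dKO XY and control XX ranges overlapped. The Inhbb difference of dKO XY from control XY was -0.59 ± 0.18 (95% interval -0.98 to -0.21, 1.51-fold lower, adjusted p = 0.035). The difference of control XX from control XY was -0.75 ± 0.18 (adjusted p = 0.0532), and dKO XY differed from control XX by 0.15 (95% interval -0.23 to 0.54, adjusted p = 0.74). Where the probes of the Inhbb cluster lie relative to the deleted part of the gene is not given in the sources used here, so the signal left in dKO XY gonads cannot be read as remaining transcript. The Inhbb call for dKO XY was lost when replicate 2 or 3 of control XY (adjusted p = 0.0567 and 0.0925) or replicate 1, 3 or 4 of dKO XY (0.0917, 0.0881 and 0.0553) was left out. It was also lost after quantile normalization and with the signal contrast of the arrays as a covariate. Control XY 3, the array of highest signal contrast, held the highest Inhbb value, and without it the difference was -0.41.

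Inha, which encodes the α subunit that makes a dimer an inhibin, was intact in all groups. It measured 8.93, 9.31, 9.60 and 8.77 on the control XY, 8.20, 8.34, 8.38 and 8.53 on the dKO XY and 8.12, 8.49, 8.05 and 8.45 on the control XX arrays. The lowest control XY array was above every array of the other groups, whose ranges overlapped each other. Inha fell by 0.79 ± 0.18 in dKO XY gonads (1.73-fold, adjusted p = 0.0223) and by 0.87 ± 0.18 in control XX gonads (1.83-fold, adjusted p = 0.0269), both against the same 4 control XY arrays. Between dKO XY and control XX gonads Inha differed by 0.09 (95% interval -0.30 to 0.47, adjusted p = 0.862). The fall in dKO XY gonads did not pass without replicate 2 or 3 of control XY (adjusted p = 0.0509 and 0.0728) or replicate 1 or 3 of dKO XY (0.0657 and 0.0654). That in control XX gonads did not pass without replicate 2 or 3 of control XY (adjusted p = 0.0886 and 0.0766) or replicate 1 or 3 of control XX (0.0851 and 0.0934). Neither fall passed after quantile normalization or with the signal contrast of the arrays as a covariate. Inha and Inhbb are usual genes of Sertoli cells, and in whole gonads fewer cells of a type and less RNA per cell cannot be told apart. The mean of 9 Sertoli cell markers was 10.23 to 10.89 on the control XY, 8.98 to 9.64 on the dKO XY and 6.82 to 7.09 on the control XX arrays. In dKO XY gonads the markers differed unevenly, with Defb19 (-4.12), Ptgds (-2.62) and Cst9 (-1.87) falling most and a median of -0.50. Of the 9, 5 were not called, among them Sox9 (-0.06). The part of Sertoli cells in the Inha and Inhbb differences was not tested.

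Inha and Inhbb were the 2 subunit genes called lower in dKO XY gonads on the deposited values. Inhbb was itself deleted there, so shared regulation cannot be read from the 2 differences. The promoter windows of both genes are shown for their letters. They are RefSeq sequences of mouse build GRCm38.p6, running from 250 bases before to 50 bases after an annotated start, 5′ to 3′ on the strand of the gene. The Inha window lies at chr1:75507359-75507658 on the plus strand, inside the annotated gene, which begins upstream of it. The Inhbb window lies at chr1:119422199-119422498 on the minus strand. Capitals mark the matches to 4 searched motifs.
Inha: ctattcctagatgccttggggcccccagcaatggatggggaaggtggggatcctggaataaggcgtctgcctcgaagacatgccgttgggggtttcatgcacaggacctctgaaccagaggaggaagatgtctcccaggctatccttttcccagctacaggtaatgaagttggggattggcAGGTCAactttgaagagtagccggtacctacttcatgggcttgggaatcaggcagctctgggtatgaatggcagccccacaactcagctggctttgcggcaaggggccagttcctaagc
Inhbb: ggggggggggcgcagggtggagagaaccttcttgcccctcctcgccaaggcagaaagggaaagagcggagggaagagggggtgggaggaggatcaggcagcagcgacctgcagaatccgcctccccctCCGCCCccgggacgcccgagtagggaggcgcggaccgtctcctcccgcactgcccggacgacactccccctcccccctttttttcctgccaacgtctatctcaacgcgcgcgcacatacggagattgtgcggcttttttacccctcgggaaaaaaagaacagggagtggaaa
The motifs were searched on both strands: AGGTCA (a nuclear receptor half-site, in 16.3% of 32851 promoter windows), TGACG (a cyclic AMP response half-site, 20.8%), GGGCGG (an SP1 box, 35.7%) and CAGACA (a SMAD element, 21.0%). The Inha window held AGGTCA once, at position -69 from the start, and no match to another motif. The Inhbb window held GGGCGG once on the opposite strand, at position -122, and none of the other motifs. No motif was shared by the 2 windows, and a match describes letters only.

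Inhba encodes the βA subunit, the partner in activin A, and was measured at 6.90, 6.99, 7.22 and 7.08 in control XY arrays. The dKO XY arrays held 6.95, 6.76, 6.94 and 6.86 and the control XX arrays 6.73, 6.69, 6.96 and 6.66. The ranges of all groups overlapped. Inhba differed by -0.17 in dKO XY (95% interval -0.41 to 0.07, adjusted p = 0.238) and by -0.29 in control XX gonads (95% interval -0.53 to -0.05, adjusted p = 0.179). Neither difference passed the test.

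Of the 4 receptor genes, only Acvr2a passed the test in dKO XY gonads, narrowly, and none passed between ovary and testis. Acvr2a, which encodes a type II receptor that binds activin, measured 8.58, 8.71, 8.55 and 8.52 in control XY and 8.07, 8.49, 7.79 and 8.18 in dKO XY arrays. In control XX arrays it measured 8.19, 8.25, 8.24 and 8.70. The dKO XY and control XY ranges did not overlap, dKO XY 2 coming closest, while control XX 4 reached the control XY range. Acvr2a was lower in dKO XY gonads by -0.45 ± 0.16 (95% interval -0.79 to -0.11, adjusted p = 0.0498), and the control XX difference of -0.24 did not pass (adjusted p = 0.351). The Acvr2a call remained only without dKO XY 2 (adjusted p = 0.0135) or control XX 4 (0.0389). It was lost without any 1 of the other 10 arrays, with adjusted p of 0.0643, 0.107, 0.106 and 0.0796 without control XY 1 to 4, 0.111, 0.143 and 0.0798 without dKO XY 1, 3 and 4, and 0.0605, 0.0587 and 0.0557 without control XX 1 to 3. The call was also lost after quantile normalization and with the signal contrast of the arrays as a covariate.

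The other type II receptor gene, Acvr2b, measured 7.58, 7.53, 7.49 and 7.46 on the control XY, 7.29, 7.49, 7.09 and 7.33 on the dKO XY and 7.31, 7.47, 7.25 and 7.52 on the control XX arrays. Array dKO XY 2 lay within the control XY range and the other 3 dKO XY arrays below it, and the Acvr2b differences of -0.22 (dKO XY, adjusted p = 0.146) and -0.13 (control XX, adjusted p = 0.475) did not pass. Acvr1b, which encodes the type I receptor ALK4, measured 7.62, 7.53, 7.74 and 7.60 in control XY and 7.43, 7.22, 7.37 and 7.35 in dKO XY arrays. These groups did not overlap, yet the difference of -0.28 (95% interval -0.57 to 0.00) gave an adjusted p of 0.11. Control XX arrays spread from 7.19 to 7.69 around them, with a difference from control XY of -0.20 (adjusted p = 0.36).

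Acvr1c, which encodes the type I receptor ALK7, had nearly the same mean in both XY groups, 5.91 ± 0.05 in control XY and 5.92 ± 0.10 in dKO XY gonads. The dKO XY difference was 0.01 (95% interval -0.20 to 0.23, adjusted p = 0.921), and its sign turned after quantile normalization (-0.28) and after subtraction of the array medians (-0.25). All 4 control XX arrays, at 5.61, 5.51, 5.76 and 5.73, were below all XY arrays, and the difference of -0.26 from control XY did not pass (adjusted p = 0.185). After quantile normalization the Acvr1c difference of control XX from control XY was -0.44 and passed (adjusted p = 0.0333). The mean of Acvr1c over the 12 arrays, 5.83, was below the median of the negative control probe sets (6.42).

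Tgfbr3 encodes betaglycan, the co-receptor that lets inhibin occupy type II receptors, and was most abundant in control XY gonads. It measured 8.52, 8.34, 8.72 and 8.28 on the control XY, 7.67, 8.12, 7.50 and 8.05 on the dKO XY and 7.63, 7.64, 7.40 and 7.66 on the control XX arrays. No array of either other group reached the control XY range, and dKO XY 1 and 3 lay with or near the control XX arrays while dKO XY 2 and 4 lay between the control groups. Tgfbr3 fell by 0.63 ± 0.16 in dKO XY gonads (1.55-fold, adjusted p = 0.024) and by 0.89 ± 0.16 in control XX gonads (1.85-fold, adjusted p = 0.0112). The difference of dKO XY from control XX was 0.26 (95% interval -0.08 to 0.59, adjusted p = 0.557). The control XX call held whichever array was left out (adjusted p at most 0.044) and was lost with the signal contrast of the arrays as a covariate (-0.58, adjusted p = 0.0787). The dKO XY call was lost without replicate 3 of control XY (adjusted p = 0.0781) or replicate 1 or 3 of dKO XY (0.0694 and 0.0711). It was also lost with the covariate and after quantile normalization.

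Among the antagonists, Fst separated ovary from testis and did not pass between the XY groups. Fst encodes follistatin, which binds activins nearly irreversibly, and measured 10.02, 11.71, 10.40 and 11.80 in control XX arrays. It measured 6.48, 6.05, 5.86 and 5.68 in control XY and 6.31, 6.24, 6.56 and 6.46 in dKO XY arrays. The lowest control XX array was far above every XY array, and within control XX gonads arrays 2 and 4 were higher than arrays 1 and 3. Fst in control XX exceeded that in control XY gonads by 4.96 ± 0.35 (adjusted p = 2.4e-05) and lower in dKO XY than in control XX gonads by -4.59 ± 0.35 (adjusted p = 0.000152). The Fst means of 6.02 in control XY and 6.39 in dKO XY were below the median of the negative control probe sets (6.42), so both differences may be understated. Both calls held whichever array was left out. In dKO XY gonads Fst differed from control XY by 0.37 (95% interval -0.38 to 1.13, adjusted p = 0.4), and array control XY 1 lay among the dKO XY arrays. In the same arrays the mean of 8 pre-granulosa cell markers was 6.88 to 7.04 on the control XY, 6.99 to 7.22 on the dKO XY and 7.29 to 7.88 on the control XX, and its part in the Fst difference was not tested. Foxl2, a defining marker on that list, stood at only 4.80 to 5.24 in control XX arrays, against 4.53 to 4.77 in control XY arrays (adjusted p = 0.156).

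Fstl3, which encodes the second activin-binding protein of the group, measured 6.05, 6.22, 6.03 and 6.09 in control XX, 5.85, 5.85, 5.83 and 5.90 in control XY and 5.89, 5.86, 6.02 and 5.87 in dKO XY arrays. Every control XX array was above every XY array, yet the Fstl3 difference from control XY was only 0.24 and did not pass (adjusted p = 0.18). Between the XY groups Fstl3 differed by 0.05 (adjusted p = 0.662), and the sign turned after quantile normalization (-0.24) and subtraction of the array medians (-0.21). The mean of Fstl3 over the 12 arrays, 5.95, was below the median of the negative control probe sets (6.42).

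Counted over the 10 genes, 4 were lower (Inhbb, Inha, Acvr2a and Tgfbr3) and 0 higher in dKO XY than in control XY gonads, where limma called 9.8% of all 65956 clusters lower and 16.7% higher. In a fit of the 29918 clusters with a mean above the median of the negative control probe sets, 6296 were lower and 3438 higher. With 1 cluster per symbol, 4873 of 30176 were lower and 5683 higher, so the share depends on the clusters counted. Inhbb, which was deleted, is among the 4, and no further gene of the 10 had an unadjusted p under 0.05. None of the 10 genes passed with a change of at least 2-fold, against 4.28% of all clusters. For 5 genes, the 4 called and Acvr1b, the dKO XY arrays lay entirely below those of control XY, as they did for 8.24% of all clusters, and for 0 genes entirely above, against 16.2% of all clusters. The median difference of the 10 genes was -0.25, beside 0.17 over all clusters. In control XX against control XY gonads, 2 were lower (Inha and Tgfbr3; background 1.34%) and 1 was higher (Fst; background 0.608%), and Fst alone passed with 2-fold (background 0.984%). The median was -0.25, beside 0.12 over all clusters, and 4 genes (Inhbb, Inha, Acvr1c, Tgfbr3) were lower and 2 (Fst, Fstl3) higher in every control XX array, against 5.76% and 7.98% of all clusters. Between dKO XY and control XX gonads, Fst was called lower (background 0.126%) and passed with 2-fold (background 0.164%), 0 genes were called higher (background 0.0895%), with 1 gene (Acvr1c) at an unadjusted p under 0.05, and the median was 0.00. The arrays of these groups did not overlap for Fst and Fstl3, lower in dKO XY (2.23% of all clusters), and for Acvr1c, higher in dKO XY (1.92%). The first and second comparisons share the control XY arrays, and no test of their difference beyond that between dKO XY and control XX was made.

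**Figure D2:**
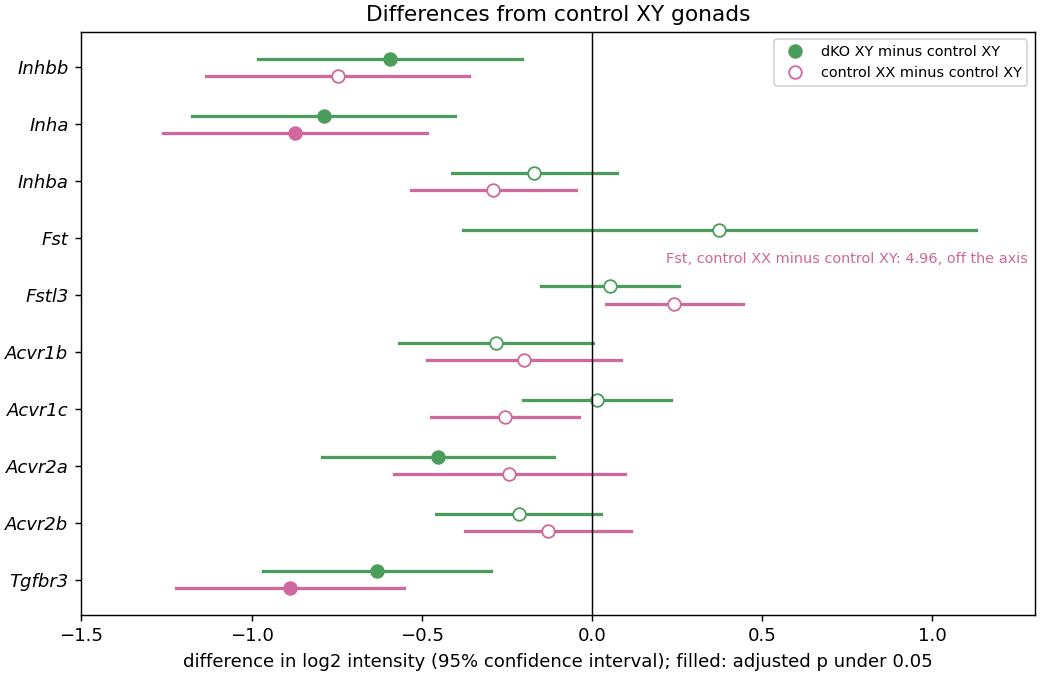
Difference in log2 intensity from control XY gonads (horizontal axis) for each of the 10 genes, for dKO XY (green points) and for control XX (pink points), n = 4 arrays per group. Lines give the 95% interval and filled points an adjusted p under 0.05. Inhbb, Inha, Acvr2a and Tgfbr3 are filled for dKO XY, Inha and Tgfbr3 for control XX, and Fst in control XX lies off the axis at 4.96.

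How many of the 10 genes were called in dKO XY gonads depended on the scaling and on single arrays. The count of 4 became 0 after quantile normalization, where 6 of the 10 had an unadjusted p under 0.05, and 7 after subtraction of the array medians, where Inhba (-0.43, adjusted p = 0.0269), Acvr1b (-0.55, 0.0312) and Acvr2b (-0.48, 0.0436) were called too. Over all clusters the lower and higher calls were 6465 and 11036 as deposited, 975 and 835 after quantile normalization, and 11165 and 2709 after subtraction of the array medians. The count of the 10 genes was 0 without control XY 3, without dKO XY 1 or without dKO XY 3, in each case with 4 genes at an unadjusted p under 0.05, 1 without control XY 2 and 2 without dKO XY 4. Inhbb, Inha, Acvr2a and Tgfbr3 stayed lower in every one of these fits. After quantile normalization their differences were -0.65 (adjusted p = 0.0557), -0.40 (0.117), -0.20 (0.351) and -0.44 (0.0943). In the plot of these 4 genes under other settings, the points keep to the left of 0 and the interval of Inha reaches 0 only with signal contrast as a covariate.

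**Figure D3:**
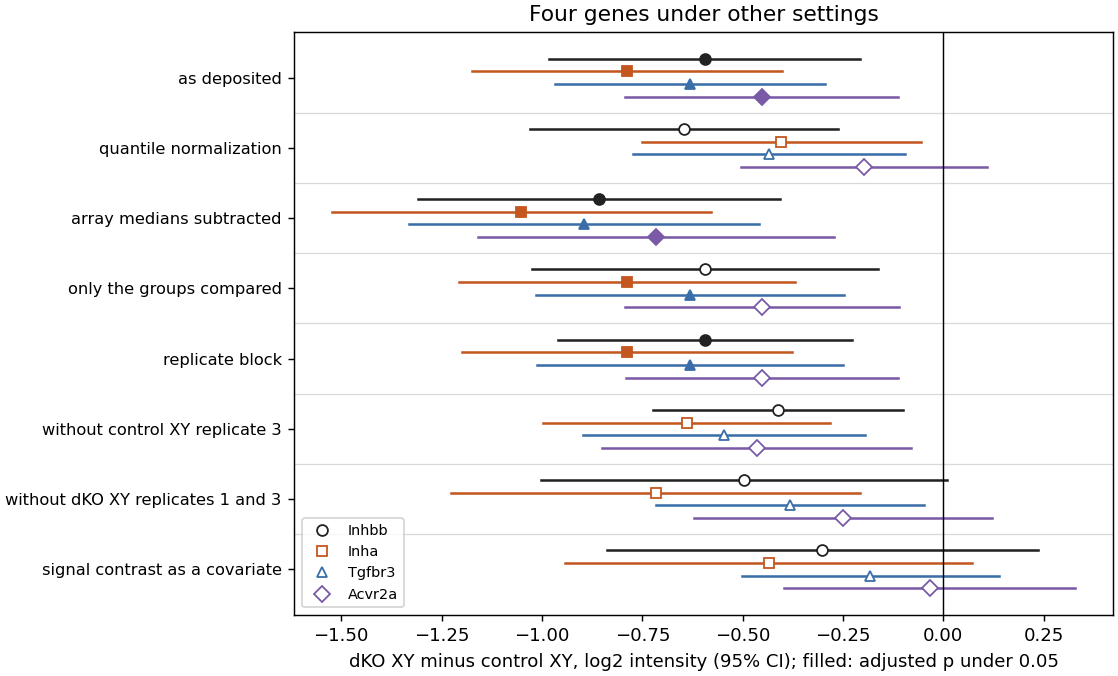
Difference of dKO XY from control XY in log2 intensity (horizontal axis) for Inhbb, Inha, Tgfbr3 and Acvr2a under 8 settings of the fit. Points are estimates, lines 95% intervals, and filled points have an adjusted p under 0.05. All 4 are filled on the deposited values and after subtraction of the array medians, and none after quantile normalization, without control XY 3, without dKO XY 1 and 3, or with the covariate.

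The levels of these 4 genes were also set against the signal contrast of each array. Control XY 3, with the highest contrast (4.44), was the highest control XY array for 5 of the 10 genes and the lowest for 2. Control XY 4, with the lowest contrast of its group (3.70), was the lowest for 6. The dKO XY group did not follow that order. Its array of highest contrast, dKO XY 2 (3.83), was the highest for 3 of the 10 genes and the lowest for 5. Its array of lowest contrast, dKO XY 3, was the highest for 2 and the lowest for 3. For Tgfbr3 and Acvr2a, dKO XY 3 (contrast 2.48) and dKO XY 1 (2.83) were the lowest dKO XY arrays, whereas Inhbb and Inha were lowest in dKO XY 1. With signal contrast as a covariate the differences of dKO XY from control XY were -0.30 for Inhbb, -0.44 for Inha, -0.18 for Tgfbr3 and -0.03 for Acvr2a, and limma called 0 of the 10 genes, with 0 at an unadjusted p under 0.05. Without dKO XY 1 and 3 they were -0.50, -0.72, -0.38 and -0.25, again with 0 genes called and 2 at an unadjusted p under 0.05. Over all 65956 clusters, 0 were called with the covariate and 4 without dKO XY 1 and 3. The lost calls are therefore not particular to the 10 genes. Fst in control XX against control XY gonads was 5.16 with the covariate (adjusted p = 0.000339). Signal contrast differed between the groups themselves, so array quality and genotype cannot be fully told apart.

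**Figure D4:**
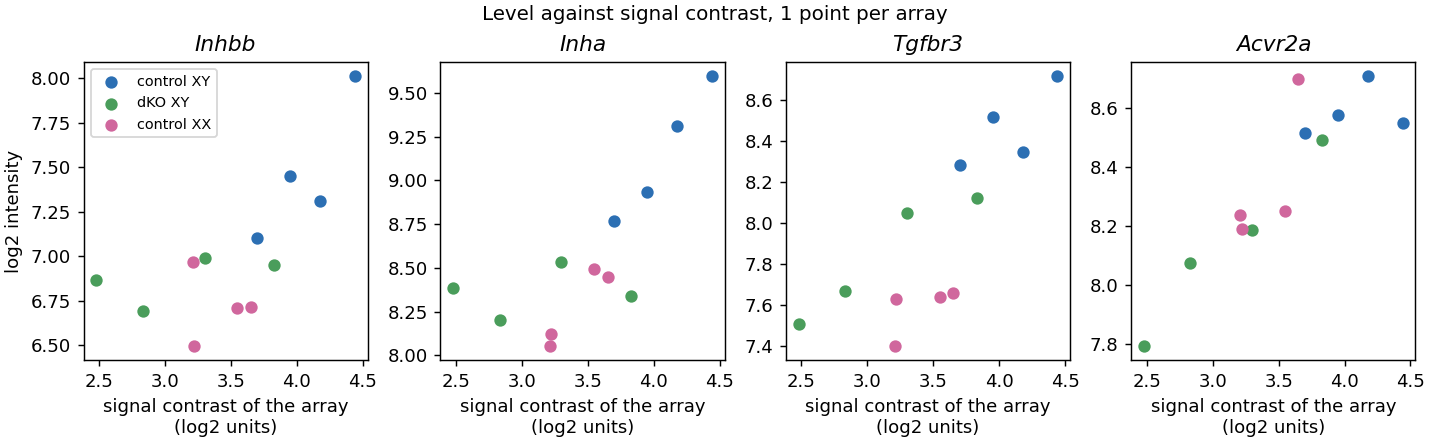
Log2 intensity of Inhbb, Inha, Tgfbr3 and Acvr2a (vertical axes) against the signal contrast of the array (horizontal axes, log2 units), 1 point per array. Control XY arrays lie at 3.70 to 4.44 and dKO XY arrays at 2.48 to 3.83, so that 1 dKO XY array falls within the control XY range of contrast.

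Further genes of the pathway were lower in dKO XY gonads as well. Of 36 measured genes on 4 lists, 14 were lower and 0 higher in dKO XY than in control XY gonads, with a median difference of -0.30. Over all clusters 9.8% were lower and 16.7% higher. Of the 29918 clusters above the median of the negative control probe sets, 6296 were lower and 3438 higher. In control XX gonads 5 of the 36 were lower and 0 higher (median -0.27), against 1.34% and 0.608% of all clusters. Of the 6 other ligand genes of activin receptors 0 were called in either comparison (1, Mstn, had an unadjusted p under 0.05 in dKO XY gonads), with differences of dKO XY from control XY between -0.21 and 0.48. The count of 14 was 3 after quantile normalization, 20 after subtraction of the array medians, and 0 both with the covariate and without dKO XY 1 and 3, where 6 and 11 genes had an unadjusted p under 0.05. It was also 0 without control XY 3 or dKO XY 1, 1 without dKO XY 3, 6 without control XY 2 or control XY 4, and 8 without dKO XY 4. Over all clusters, 0 were called with the covariate and 4 without dKO XY 1 and 3.

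Of 10 genes for co-receptors, decoys and binding proteins, 4 were lower in dKO XY gonads. Fstl1, which encodes a secreted protein related to follistatin, fell from 12.24, 12.33, 12.85 and 12.05 in control XY to 10.47, 11.79, 10.30 and 11.31 in dKO XY arrays, a difference of -1.40 ± 0.29 (adjusted p = 0.0212). The groups did not overlap, and dKO XY 1 and 3 were the lowest. Bambi, a decoy receptor without a kinase, differed by -0.92 (adjusted p = 0.0398), and Lefty2, a secreted antagonist of nodal, by -0.33 (adjusted p = 0.0456). Acvr1, which encodes the type I receptor ALK2, fell by 0.58 ± 0.12 in dKO XY (adjusted p = 0.0213) and by 0.79 ± 0.12 in control XX gonads (adjusted p = 0.00475), where it was the 1 gene of the list called. Of 4 proprotein convertases, enzymes that cleave hormone precursors, Pcsk5 was called in all 3 comparisons. It measured 8.80 to 8.98 on the control XY, 8.07 to 8.53 on the dKO XY and 7.51 to 7.61 on the control XX arrays, so that dKO XY lay between the control groups without overlap. Its transcript fell by 0.60 ± 0.12 in dKO XY (adjusted p = 0.0206) and by 1.34 ± 0.12 in control XX gonads (adjusted p = 0.000109). Its level in dKO XY was above that in control XX by 0.73 (adjusted p = 0.0303). In dKO XY against control XY gonads, 1 of the 10 co-receptor, decoy and binding protein genes and 0 of the 4 convertases were called after quantile normalization. Both counts were 0 with the covariate and without dKO XY 1 and 3, fits that called 0 and 4 of all clusters. There 2 and 3 of the 10, and 1 of the 4 in each fit, had an unadjusted p under 0.05.

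The intracellular branch through SMAD2 and SMAD3 held 16 measured genes, of which 9 were lower in dKO XY gonads and 3 in control XX gonads, with 0 higher in either, against 9.8% and 1.34% of all clusters lower. Above the median of the negative control probe sets, 10 of 15 were lower in dKO XY gonads, against 6296 of 29918 clusters. In dKO XY gonads 2 of the 16 were lower after quantile normalization, and 0 both with the covariate and without dKO XY 1 and 3, where 3 and 7 had an unadjusted p under 0.05. Over all clusters, 0 were called with the covariate and 4 without dKO XY 1 and 3. Skil, which encodes the SMAD corepressor SnoN, had the largest difference of the list, -1.34 ± 0.22 in dKO XY (adjusted p = 0.0163) and -1.27 ± 0.22 in control XX gonads (adjusted p = 0.0106). It measured 9.40 to 10.25 on the control XY, 8.01 to 9.01 on the dKO XY and 8.35 to 8.84 on the control XX arrays. Tgif1, another corepressor, differed by -0.90 in dKO XY gonads (adjusted p = 0.0207) and by -1.05 in those of control XX (adjusted p = 0.0103). Dab2, an adaptor protein, differed by -0.98 (adjusted p = 0.02) and Trim33, a SMAD4-binding ubiquitin ligase, by -0.86 (adjusted p = 0.0317) in dKO XY gonads. Of the SMAD genes that carry the signal, named here after their values were seen, Smad4 fell by 0.79 (adjusted p = 0.0256), while Smad2 (-0.44, adjusted p = 0.0822) and Smad3 (-0.28, adjusted p = 0.0808) did not pass.

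**Figure D5:**
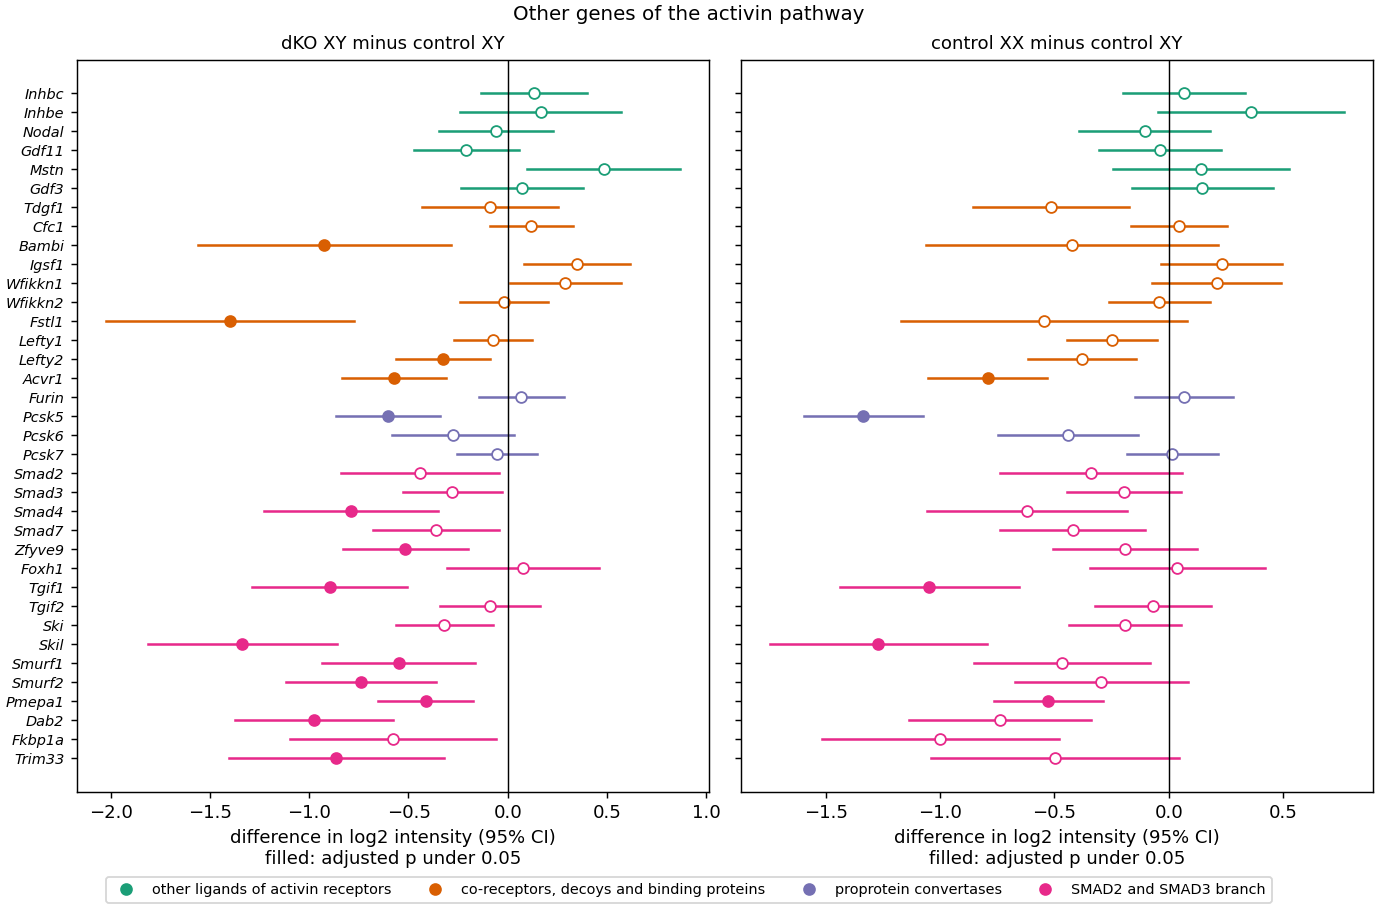
Difference in log2 intensity from control XY gonads (horizontal axes) of 36 further pathway genes in dKO XY (left) and control XX (right) gonads, n = 4 arrays per group. Colours give the list, lines the 95% interval, and filled points an adjusted p under 0.05. The 14 filled points on the left and the 5 on the right all lie below 0.

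Markers of the gonad's cell types were counted in the same way. Over all clusters 9.8% were lower and 16.7% higher in dKO XY, and 1.34% and 0.608% in control XX gonads. Of 9 Sertoli cell markers 4 were lower in dKO XY, led by Defb19 (-4.12) and Ptgds (-2.62), and 8 in control XX gonads, led by Cst9 (-10.60) and Defb19 (-8.14). Sox9, which directs Sertoli cell fate, was 9.94 to 10.85 in dKO XY against 10.04 to 10.68 in control XY arrays (adjusted p = 0.859). Of 5 interstitial markers 4 were lower in dKO XY (Tcf21 -2.58, Wnt5a -1.64) and 4 in control XX gonads (Tcf21 -3.09, Ptch1 -3.01). Of 4 fetal Leydig markers 2 were lower in dKO XY (Cyp17a1 -2.39, Hsd3b1 -1.95) and 1 in control XX gonads (Cyp17a1 -2.60). Of 8 pre-granulosa markers 1 was lower (Lgr5 -0.70) and 1 higher (Runx1 0.63) in dKO XY, and 5 were higher in control XX gonads, led by Wnt4 and Runx1 (both 0.97). In dKO XY gonads 3 of 8 endothelial markers (Cdh5 -1.35, Kdr -0.78) and 1 of 5 erythroid markers (Alas2 -0.56) were lower, and 2 of 7 macrophage markers (Fcgr1 0.46, Adgre1 0.39) and 3 of 5 mesonephros markers (Cdh16 0.48, Pax8 0.42) were higher. None of those 4 lists had a call in control XX gonads, and 0 of 7 germ cell and 0 of 4 coelomic epithelium markers were called in either comparison. For dKO XY gonads, 1 lower and 1 higher of 8 pre-granulosa markers are near the shares over all clusters. In lists this short, 1 of 5 erythroid and 2 of 7 macrophage markers are too few to be set apart from those shares. With the covariate, and also without dKO XY 1 and 3, limma called 0 markers of any of these lists in dKO XY gonads. Those fits called 0 and 4 of all clusters. In dKO XY gonads they left 3 and 4 of the 9 Sertoli cell markers at an unadjusted p under 0.05. After quantile normalization 3 Sertoli cell, 2 interstitial and 1 fetal Leydig marker were still called lower there, and 0 of the pre-granulosa, endothelial, erythroid, macrophage and mesonephros lists. The macrophage and mesonephros calls were also 0 after subtraction of the array medians. The part of these cell types in the differences of the pathway genes was not tested.

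Genes whose pattern over the 12 arrays was most like that of a member were taken from 17251 symbols. The points share the groups and the signal contrast of the arrays, so the correlations are a description. Most like Inhbb were Ccn2 (Pearson r = 0.955), Chp2 (0.955) and Sin3b (0.948). Most like Inha were Abhd5 (0.970), Cercam (0.966) and Nuak1 (0.962), and the mean of Cercam was 8.50, 7.77 and 7.77 in the control XY, dKO XY and control XX groups. Most like Fst were Egfl6 (0.988), Cfap161 (0.984) and Adamts19 (0.981), with Egfl6 at 7.04, 7.09 and 9.39 in those groups.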

How the data were processed

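RNA of fetal gonads was amplified (Nugen WT-Ovation Pico) and hybridized to Clariom D arrays. The authors deposited a table of log2 intensity for 72688 probe sets on 12 arrays, of which 65956 are transcript clusters. The study's methods name RMA normalization and a one-way model in Partek, but how the deposited table itself was summarised is not given in the sources used here, and its highest value, 19.9, looks like a ceiling. Its number of arrays limits the precision. The stage follows the labels, and the data statement of the study gives a different stage for it. Values were used as deposited, and 30638 clusters carry 1 gene symbol, 2176 several and 33142 none in the platform annotation. Per symbol the cluster with the highest mean was taken, and each of the 10 members had 1 cluster.

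All arrays were fitted with limma 3.58.1 in R 4.3.3 (lmFit, eBayes, 3 group means, 3 contrasts, two-sided), with Benjamini-Hochberg adjustment over all clusters and a threshold of 0.05, and a second count at 2-fold. The fit was run on simulated data with independent noise. Those data lack the differences in array quality seen here, so that run cannot vouch for the calls. Values per array were compared by exact permutation over 70 arrangements (SciPy 1.17.1, Python 3.11.15). Plots used matplotlib 3.10.9. Alternatives were quantile normalization, subtraction of array medians, filters on dim clusters, an intensity trend, no moderation, the 2 groups alone, a replicate block, signal contrast as a covariate, adjustment over 1 cluster per symbol, and leaving out arrays. The members and lists were chosen with earlier results of these data known. Other pathway genes were named where they passed in any comparison, or, where over 4 passed in a list, the 4 of largest difference, and markers as the 2 of largest difference among those called. Likeness was Pearson's r over symbols other than predicted genes, clones, small RNAs and pseudogenes. Of 117 genes on the lists, 9 had no cluster under their symbol. Promoter windows came from RefSeq, where 8 of the 10 members had one.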

Additional observations from a re-analysis of the deposited data

Results flagged for a closer look

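In 3 of 33 groups of 4 arrays, over the 10 members and Amh, 1 array lay apart from the others by more than Dixon's limit for a group of this size, and chance gives about 1 in 20. Acvr1c in control XY 3 was 5.83, below the other control XY arrays at 5.93 to 5.95. Acvr2a in control XX 4 was 8.70, above the other control XX arrays at 8.19 to 8.25, and within the control XY range. Tgfbr3 in control XX 3 was 7.40, below the other control XX arrays at 7.63 to 7.66. All 3 gaps were smaller than 0.5 on the log2 scale.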

How the results depend on the processing

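In dKO XY against control XY gonads, 4 of the 10 genes were called, and 0 after quantile normalization, 7 after subtraction of the array medians, 2 without moderation, 2 with only the groups compared, 0 with the covariate and 0 without dKO XY 1 and 3 (0 to 4 without single arrays). Of 17501 clusters called, the count was 1810, 13874, 6958, 10849, 0 (2949 at an unadjusted p under 0.05) and 4 under these settings in turn, 767 and 9734 with filters at the 95th percentile and the median of the negative control probe sets, 10556 with 1 cluster per symbol, and 78 to 28065 without single arrays. In control XX against control XY gonads, 3 genes were called and 1 with the covariate (2 to 4 without single arrays), and of 1284 clusters 72 with the filter at the 95th percentile, 787 without moderation, 391 with the covariate and 569 to 1821 without single arrays. In dKO XY against control XX gonads, 1 gene was called throughout, and of 142 clusters 235 after quantile normalization and with the covariate, 54 after subtraction of the medians, 21 with the filter at the 95th percentile, 34 without moderation, 43 with only the groups compared, 66 without dKO XY 1 and 3, and 36 to 211 without single arrays. The filter at the 95th percentile (10.4) left none of the 10 genes, so the filter at the median (6.42) was added after seeing the data, which left out Fstl3 and Acvr1c. The mean over all clusters of a symbol gave no new value, since each gene had 1 cluster.

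Signs turned in dKO XY against control XY for Fstl3 and Acvr1c after quantile normalization (-0.24 and -0.28), subtraction of the medians (-0.21 and -0.25) and with the covariate (-0.011 and -0.102), for Acvr2b with the covariate (0.020), and for Acvr1c without dKO XY 1 and 3 (-0.024) and without single arrays (-0.012 to 0.063). They turned in control XX against control XY for Acvr2a (0.046) and Acvr2b (0.033) with the covariate. They turned in dKO XY against control XX for Inha after subtraction of the medians (-0.0076), Acvr2b without dKO XY 1 and 3 (0.022) and Acvr1b without control XX 2 (-0.162 to 0.0063 without single arrays). Inha in control XX against control XY lost its call after quantile normalization (-0.63, adjusted p = 0.0822), without moderation (0.0682) and with only the groups compared (0.0556). With the covariate, both Inha and Tgfbr3 (-0.58, 0.0787) lost their calls in that comparison. Inhbb in control XX against control XY was called with the filter at the median (0.0384), with 1 cluster per symbol (0.0375) and without control XY 4 (0.0399). The causes were not tested.

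After the group means were subtracted, arrays of the same number in different groups correlated at -0.406 to 0.369 (median 0.046). Of the 12 arrays 2 matched their own number best, so these values gave no sign that the numbers pair the samples. With a replicate block, 3, 2 and 1 genes and 15460, 965 and 100 clusters were called in the 3 comparisons: Acvr2a (adjusted p = 0.0544) lost its call in dKO XY and Inha (0.0534) in control XX gonads. The number of arrays limits what could be detected.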
